A study of Sus scrofa with 6 samples.

Results

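Chromatin accessibility was examined at the 10 genes of the myostatin pathway (MSTN, GDF11, FST, FSTL3, ACVR2A, ACVR2B, TGFBR1, SMAD2, SMAD3 and SMAD7) in single cells of pig embryos. The regions were the peaks that overlapped a gene body or the 20 kb upstream of it on Sscrofa11.1, merged across the libraries wherever they shared at least 1 base. This gave 124 member regions among 294825 in the whole series. They were numbered by coordinate within each gene, as in SMAD3_45, and 13 of them were promoter regions, meaning that they overlapped the 2 kb before an annotated transcript start.

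The data were 6 single-cell ATAC-seq libraries, in which the Tn5 transposase cuts accessible DNA and droplet barcodes assign the fragments to cells. Somite tissue was taken at embryonic day (E) 18 and E21, and myotome tissue at E28, so the step to E28 changes the stage and the dissected tissue at the same time and they cannot be told apart. Each stage had 1 library of Tibetan pigs (ZZ) and 1 of Duroc × Tibetan pigs (DZ), and each library pooled embryos of 1 sow. A stage by breed group therefore holds 1 library, the 2 breeds served as the replicates of a stage, and p-values measure the spread between these libraries only.

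Myostatin, encoded by MSTN, is a secreted ligand of the TGF-β family that limits the growth of skeletal muscle. It binds the type II activin receptors, which recruit a type I receptor such as TGFBR1. The receptors phosphorylate SMAD2 and SMAD3, which enter the nucleus with SMAD4, while SMAD7 inhibits the receptors as a feedback product of the pathway. Follistatin (FST) and FSTL3 trap the ligands outside the cell. Loss of MSTN gives the double-muscled phenotype known in cattle and other mammals.

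The 58809 cells kept, with 2000 to 30000 counts in peaks each, gave 89816504 to 133037579 counts per library and medians of 8084.5 to 11452 counts per cell. Peaks were called separately in each library and covered more of the genome in the E18 libraries (191 and 168 Mb) than in the E21 (147 and 158 Mb) or E28 libraries (102 and 108 Mb). Counts exist only inside a library's own peaks, so a region without a peak is listed at 0 there and gets no fold change. Libraries shared between 1.22% and 1.66% of the barcodes of the smaller library in each pair. All 9 lists of other cell types (endothelial, fibroblast and mesenchyme, sclerotome and cartilage, neural progenitor, neuron, epithelial, heart, blood and immune, dermomyotome) had counts in every library at each marker gene that had a region. The summed levels of some lists differed between the stages. In the endothelial list the sum hides members that went opposite ways, with CDH5, TIE1 and TEK lower and ERG higher at E28. Neural progenitor markers went from 345 and 388 CPM (a region's counts scaled to a common total of counts in peaks per library) at E18 (ZZ and DZ) to 206 and 228 at E28, heart markers from 428 and 405 to 209.7 and 269.6 at E28, epithelial markers from 265 and 256 to 140.4 and 141, and the sum over the muscle markers from 464.5 and 460.6 to 564 and 639.5, although TNNI1 and ACTA1 among them were lower at E28. The part of these marker differences in the stage results was not tested.

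The following genomic windows are shown because the results turn on them. They are the MSTN promoter and the region inside MSTN and 1 alternative ACVR2B promoter, which were more open in muscle-marked cells, and 3 SMAD3 regions with differing behaviour. Each was read from the RefSeq genome, build Sscrofa11.1, in the direction of its gene at the point shared by most peaks, except that the MSTN promoter window leaves out the 150 bases next to the annotated start.
MSTN_1, chr15:94626528-94626827, minus strand: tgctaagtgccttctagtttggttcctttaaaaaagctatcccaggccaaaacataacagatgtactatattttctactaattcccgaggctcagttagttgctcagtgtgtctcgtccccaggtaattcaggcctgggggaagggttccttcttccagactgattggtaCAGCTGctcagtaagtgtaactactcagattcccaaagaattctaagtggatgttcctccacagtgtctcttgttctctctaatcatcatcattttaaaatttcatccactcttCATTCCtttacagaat
MSTN_2, chr15:94628591-94628816, minus strand: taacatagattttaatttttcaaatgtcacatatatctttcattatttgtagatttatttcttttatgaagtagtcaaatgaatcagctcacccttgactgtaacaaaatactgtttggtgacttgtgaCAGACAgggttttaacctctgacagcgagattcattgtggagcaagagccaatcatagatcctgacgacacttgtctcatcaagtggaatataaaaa
ACVR2B_2, chr13:23244161-23244460, plus strand: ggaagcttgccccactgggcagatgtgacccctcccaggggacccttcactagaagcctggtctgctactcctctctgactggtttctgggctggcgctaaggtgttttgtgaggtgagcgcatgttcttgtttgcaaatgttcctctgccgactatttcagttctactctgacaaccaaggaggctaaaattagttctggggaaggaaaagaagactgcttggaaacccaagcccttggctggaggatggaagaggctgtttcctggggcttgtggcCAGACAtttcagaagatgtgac
SMAD3_39, chr1:165103120-165103419, plus strand: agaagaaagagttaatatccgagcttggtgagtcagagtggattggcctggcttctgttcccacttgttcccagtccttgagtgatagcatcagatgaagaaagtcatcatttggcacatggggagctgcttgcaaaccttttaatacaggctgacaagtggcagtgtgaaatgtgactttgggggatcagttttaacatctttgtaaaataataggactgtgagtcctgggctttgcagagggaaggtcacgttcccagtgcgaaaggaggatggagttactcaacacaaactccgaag
SMAD3_45, chr1:165119613-165119912, plus strand: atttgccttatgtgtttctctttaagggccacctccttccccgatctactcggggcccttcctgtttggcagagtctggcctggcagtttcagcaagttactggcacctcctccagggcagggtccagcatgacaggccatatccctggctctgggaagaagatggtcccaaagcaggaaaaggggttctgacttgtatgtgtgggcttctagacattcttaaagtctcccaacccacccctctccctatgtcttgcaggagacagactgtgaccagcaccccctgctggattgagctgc
SMAD3_12, chr1:165016818-165017117, plus strand: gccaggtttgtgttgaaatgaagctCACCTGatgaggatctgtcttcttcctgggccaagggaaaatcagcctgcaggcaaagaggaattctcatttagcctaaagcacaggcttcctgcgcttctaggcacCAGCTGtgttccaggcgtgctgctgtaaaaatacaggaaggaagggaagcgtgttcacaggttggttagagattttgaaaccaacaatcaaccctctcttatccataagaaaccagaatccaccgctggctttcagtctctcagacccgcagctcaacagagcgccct
Capitals mark CAGCTG or CACCTG (forms of the E-box bound by basic helix-loop-helix factors such as MYOD1), CATTCC (bound by TEAD factors) and CAGACA (a SMAD-type element), searched on both strands, and no marked letters overlapped. CAGCTG stood in MSTN_1 and SMAD3_12, CATTCC in MSTN_1, CACCTG in SMAD3_12 and CAGACA in MSTN_2 and ACVR2B_2, while the SMAD3_39 and SMAD3_45 windows held none of these letters. Among 300-base windows of the 89962 regions with a peak in all E21 and E28 libraries, 27.8% held CAGCTG, 22.2% CACCTG, 20.6% CATTCC and 23.3% CAGACA, so each of these matches is common. In 226-base windows, the length of the MSTN_2 sequence, 18.4% held CAGACA.

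MSTN was the member gene with no peak at E18. Its gene lies on the minus strand at chr15:94623526-94628440, and its window held 3 regions. The MSTN promoter region (MSTN_2, chr15:94628436-94628816) was listed at 0 in E18 ZZ and E18 DZ, and held 3 counts in E21 ZZ, 73 in E21 DZ, 117 in E28 ZZ and 146 in E28 DZ. These correspond to 0.027, 0.68, 1.30 and 1.48 CPM in the 4 later libraries. Both E28 libraries were above both E21 libraries, and the E21 libraries were far apart from each other. The peak covered 88 bases in E21 ZZ and 310 to 381 bases in the other later libraries. The region inside the gene (MSTN_1, chr15:94626471-94626861) overlaps the promoter of C15H2orf88, so its counts cannot be given to either gene alone. It was listed at 0 at E18, and held 0.79 and 0.84 CPM at E21 and 1.46 and 1.52 at E28, in ZZ and DZ. MSTN_3 (chr15:94629486-94630623), also a promoter region and centred at -1614 bases from the start, had a peak only at E21, with 127 counts in ZZ and 270 in DZ. It held the most counts of the MSTN promoter regions, but the MSTN promoter drawn and compared elsewhere is MSTN_2. C15H2orf88 also overlaps MSTN_2 and MSTN_3, so their counts cannot be given to MSTN alone. No region of MSTN had a peak in all 6 libraries, so none entered the stage fit. Cells marked at muscle loci, defined below, made up 6.41% of E21 ZZ, 5.79% of E21 DZ, 7.90% of E28 ZZ and 12.7% of E28 DZ. The same marking took in 4.17% of E18 ZZ and 4.96% of E18 DZ. Those E18 cells were hardly above matched cells at the other muscle genes (1.03 and 1.04 times). A share of this size can therefore carry little muscle signal, and the part of the later shares that is muscle was not tested. Fewer cells of a type and less open chromatin per cell cannot be told apart in the counts above.

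**Figure D1:**
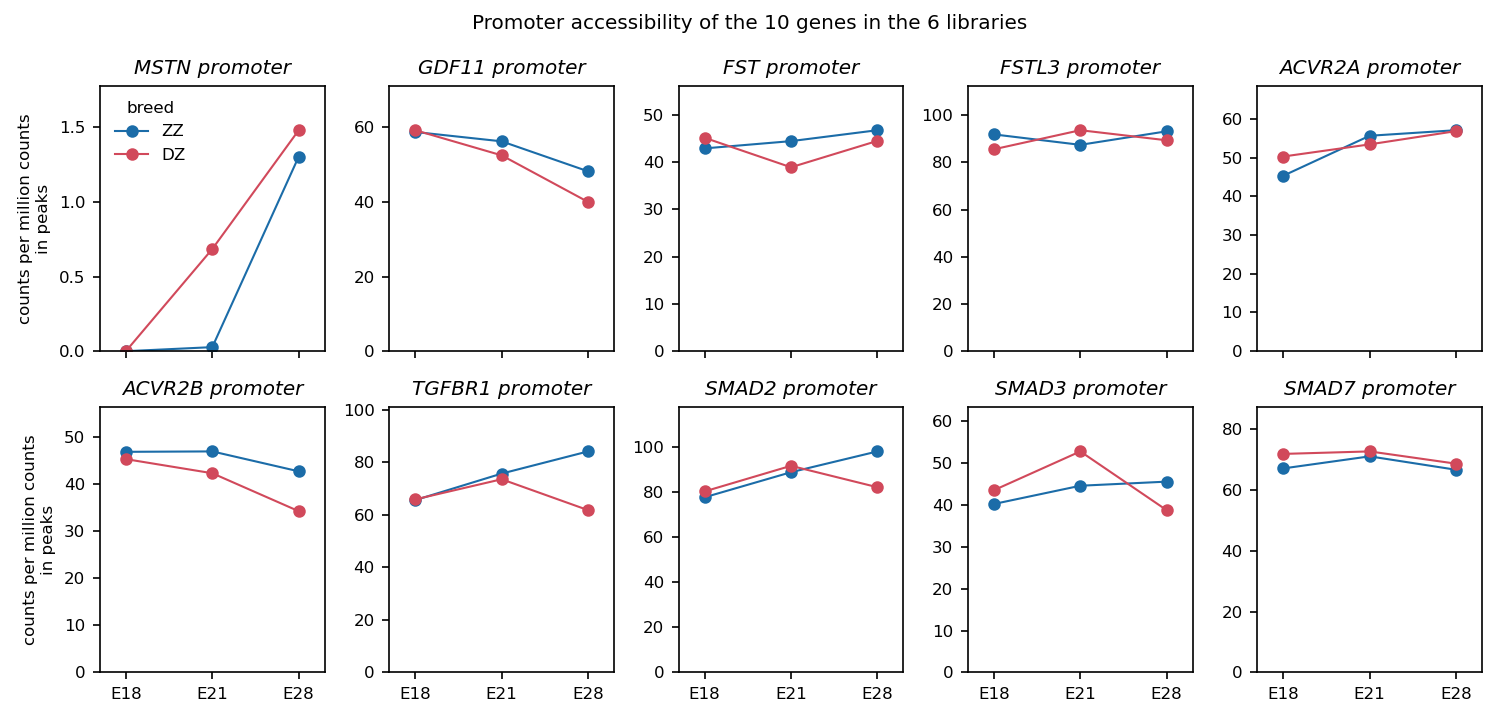
CPM (vertical axes, each starting at 0) at 1 promoter region of each gene, by stage, with a point for each of the 6 libraries and a line for each breed. MSTN, drawn at MSTN_2, is listed at 0 at E18 and reaches 1.30 and 1.48 at E28. MSTN_3, the MSTN promoter region with the most counts, had a peak only at E21 and is not drawn. The other 9 promoters are open in every library, with levels from 34.3 to 98.01.

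The other 9 genes had a promoter open in every library. GDF11 (chr5:21191322-21199024), a ligand closely related to myostatin that patterns the axial skeleton, held 58.7 and 59.2 CPM at its promoter (GDF11_6) in the ZZ and DZ libraries of E18, then 56.2 and 52.5 (E21) and 48.2 and 40.0 (E28). It was lowest in both E28 libraries, with a log2 fold change for E28 against E18 of -0.47 ± 0.09 (SE) and an adjusted p of 0.012 (edgeR's quasi-likelihood test with Benjamini-Hochberg adjustment over all regions tested; a region under 0.05 is said to be called). The peaks spanned 4747 and 4707 bases at E18 against 3421 and 3217 at E28, and the change was also computed per covered base. That scale moved the median of all regions from -0.02 to 0.43, so values per covered base are given below as differences from that median, with no call. For GDF11_6 this was -0.39. Leaving out 1 library leaves the fit 1 residual degree of freedom, and leaves 1 stage with a single library, which is assumed to vary like the other groups. Without E18 DZ the adjusted p of GDF11_6 was 0.098, and over the 6 such fits its change stayed between -0.55 and -0.39. The upstream region at -15724 bases (GDF11_2) is a promoter region of CD63, LOC102162669 and LOC106510300. It rose from 62.9 and 61.6 CPM to 84.0 and 76.3, by 0.32 ± 0.09 with an adjusted p of 0.034. This call was lost without any 1 library other than E28 DZ, although the change stayed between 0.27 and 0.37.

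The promoters of the ligand traps were not called between the stages. The promoter of FST (chr16:32806341-32811382), FST_4, measured 42.9 and 45.1 CPM at E18, 44.4 and 38.9 by E21, then 46.7 and 44.4 at E28. Its log2 fold change for E28 against E18 was 0.01 ± 0.09 with an adjusted p of 0.97, and the libraries of the stages overlapped. FSTL3 (chr2:77656655-77662608), which like FST binds activins and myostatin, had 91.9 and 85.6 CPM at its promoter (FSTL3_1) at E18 and 93.2 and 89.4 at E28, a log2 fold change of -0.01 ± 0.09 with an adjusted p of 0.97. Per covered base FSTL3_1 lay at -0.18 from the median of all regions. The FSTL3 region past the threshold in counts, FSTL3_4, is the promoter of RNF126. It rose from 29.1 and 30.0 to 39.1 and 40.8 CPM, by 0.39 ± 0.10 with an adjusted p of 0.032, a call lost whichever of the 6 libraries was left out (adjusted p = 0.052 to 0.27), with the change between 0.30 and 0.48. The FSTL3_2 region upstream measured 6.15 and 7.56 CPM at E18 and 8.60 and 8.90 at E28, and 0.31 ± 0.22 was not past the threshold. Per covered base it lay 0.51 above the median.

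Among the receptors, the promoter (ACVR2A_11) of ACVR2A, a type II receptor at chr15:4177333-4259056, measured 45.3 and 50.3 CPM at E18, 55.6 and 53.4 by E21, then 57.05 and 56.8 at E28. Every E28 value was above every E18 value, but the log2 fold change of 0.21 ± 0.08 had an adjusted p of 0.10. Per covered base it lay at -0.04 from the median of all regions. At the main promoter (ACVR2B_1) of ACVR2B, the other type II receptor at chr13:23237699-23276086, the values were 46.9 and 45.3 at E18, 47.0 and 42.3 by E21, then 42.7 and 34.3 at E28. The log2 fold change was -0.31 ± 0.09 with an adjusted p of 0.045, a call lost when any 1 library other than E28 ZZ was left out, with the change between -0.39 and -0.24. Per covered base it lay at -0.59 from the median. TGFBR1, the type I receptor at chr1:240842735-240918267, has a second annotated start inside the gene, and its most open promoter region (TGFBR1_9) is centred there, 17037 bases from the outermost start. It held 65.6 and 65.8 CPM at E18, 75.7 and 73.5 by E21, then 84.1 and 61.8 at E28, and 0.09 ± 0.11 was not past the threshold. ZZ was higher at E28 than at E18 and DZ lower. The region at the outermost TGFBR1 start (TGFBR1_5) held 3.64 and 4.45 CPM at E18, 2.06 and 2.19 by E21, then 1.99 and 4.32 at E28.

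Of the tested non-promoter regions of TGFBR1 and ACVR2B, TGFBR1_14, TGFBR1_15 and ACVR2B_7 fell between E18 and E28, while TGFBR1_16 (0.13) and ACVR2B_4 (-0.32) were not called. In TGFBR1, intronic region TGFBR1_14 fell from 5.54 and 8.26 CPM in the E18 libraries to 1.84 and 1.42 by E21, with 2.13 and 2.70 at E28, with log2 fold changes against E18 of -2.12 ± 0.35 at E21 (adjusted p = 0.031) and -1.55 ± 0.34 at E28 (adjusted p = 0.017). The E21 call was lost when any 1 of the E18 or E21 libraries was left out. TGFBR1_15 measured 2.98 and 2.63 at E18 against 1.49 and 0.40 at E28, a log2 fold change of -1.81 ± 0.56 with an adjusted p of 0.0499. Per covered base it lay at -0.77 from the median, and the call was lost without any 1 library other than E28 ZZ, with the change between -2.75 and -1.07. The region over an ACVR2B exon (ACVR2B_7) fell from 6.65 and 5.11 to 1.202 and 1.10, with a log2 fold change of -2.36 ± 0.44 and an adjusted p of 0.011. Its covered length at E28 was 0.18 times that at E18, and per covered base it lay at -0.38 from the median. Without E18 DZ neither ACVR2B_7 (adjusted p = 0.085) nor TGFBR1_14 (0.19) was called between E28 and E18, nor was TGFBR1_14 without E18 ZZ (0.053). The ACVR2A regions ACVR2A_3 and ACVR2A_6 were not called between stages, with log2 fold changes of 1.30 ± 0.54 and -0.08 ± 0.32, and ACVR2A_3 lay 0.33 above the median per covered base.

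The promoters of the signal transducers SMAD2 and SMAD3 were not called between the stages. SMAD2 lies at chr1:97415360-97511388, and its promoter SMAD2_10 held 77.7 and 80.3 CPM at E18, 88.8 and 91.6 by E21, then 98.01 and 82.1 at E28, with a log2 fold change of 0.14 ± 0.09 and an adjusted p of 0.28. Its peaks were narrower at E28, and per covered base it lay 0.21 above the median. Upstream of SMAD2, region SMAD2_11 fell from 3.30 and 4.34 to 0.52 and 0.16 CPM, the largest fall of E28 against E18 among the 49 tested member regions, at -3.66 ± 0.59 with an adjusted p of 0.0077. Per covered base it lay at -1.12 from the median, and without E18 DZ its adjusted p was 0.051. SMAD2 had a peak in both E18 libraries at 9 of its 13 regions, in both E21 libraries at 5, and in both E28 libraries at 2. These are 69.2%, 38.5% and 15.4% of its regions, against 59.8%, 50% and 35.7% of all 294825 regions.

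SMAD3 (chr1:164998457-165124455) held 48 of the 124 regions, and 10 of its 19 tested regions were called between E28 and E18, where 37.1% of all regions tested were called. Its promoter (SMAD3_6) measured 40.3 and 43.6 CPM at E18, 44.6 and 52.8 by E21, then 45.6 and 38.8 at E28, a log2 fold change of -0.03 ± 0.13. Other regions along the gene went both ways. SMAD3_45 (chr1:165117596-165120795, overlapping an exon 120738 bases from the start) held 2.36 and 2.51 CPM at E18, 8.08 and 12.3 by E21, then 27.3 and 40.9 at E28. It rose by 1.96 ± 0.22 on the log2 scale from E18 to E21 (adjusted p = 0.020), by 1.77 ± 0.21 from E21 to E28 (adjusted p = 0.025) and by 3.72 ± 0.23 over the whole span (adjusted p = 0.0023). Its peak also widened, and per covered base the E28 against E18 change lay 1.45 above the median. The 2 contrasts with E18 share the E18 libraries.

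SMAD3_39 (chr1:165101595-165103676) rose from 1.26 and 1.84 CPM in the E18 libraries to 6.55 and 9.57 by E21 and further to 10.2 and 12.9 by E28. The stages did not overlap, and the log2 fold change was 2.31 ± 0.23 for E21 against E18 (adjusted p = 0.019) and 2.87 ± 0.24 for E28 against E18 (adjusted p = 0.0026). The intronic regions SMAD3_12 and SMAD3_38 also rose from E18 to E28, by 2.29 ± 0.53 and 1.75 ± 0.48. In the opposite direction, SMAD3_3, upstream at -12144 bases, fell from 5.20 and 5.28 CPM to 1.002 and 1.06, with a log2 fold change of -2.40 ± 0.36 and an adjusted p of 0.0063. The intronic regions SMAD3_7, SMAD3_11, SMAD3_25, SMAD3_32 and SMAD3_33 fell too, with log2 fold changes from -0.74 to -1.53. Their peaks were narrower at E28, and per covered base SMAD3_33 lay at -0.97 from the median and the others between -0.34 and -0.0035. For SMAD3_32 the values were 16.3 and 18.7 CPM at E18, 15.2 and 17.6 by E21, then 7.88 and 8.95 at E28, and E28 against E21 gave -0.94 ± 0.16 with an adjusted p of 0.035. A further pair of SMAD3 intronic regions, SMAD3_14 and SMAD3_43, was listed at 0 at E18 and held 8.68 and 5.16, and 4.71 and 3.73, CPM at E28.

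**Figure D2:**
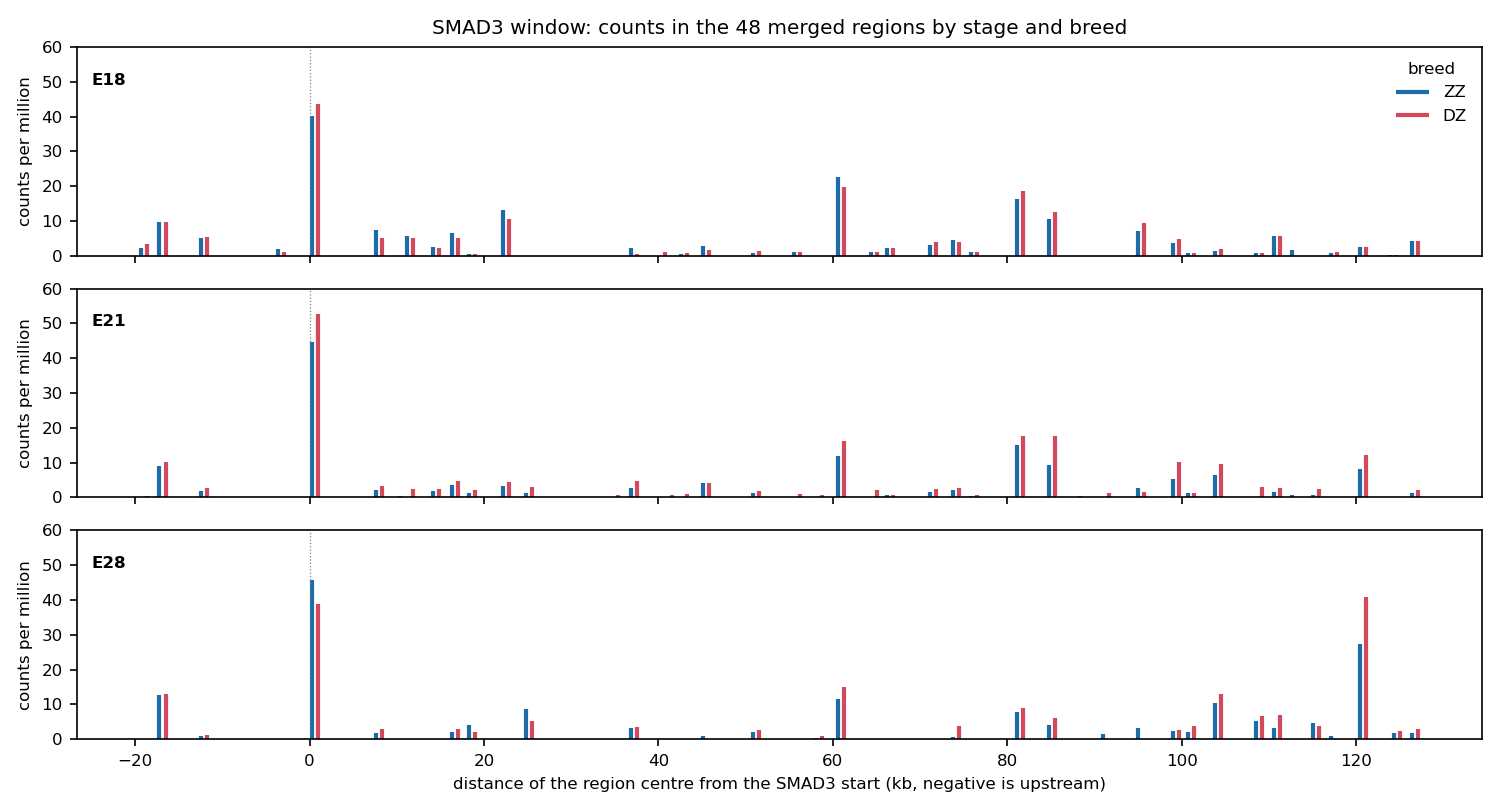
CPM in each of the 48 SMAD3 regions (bars from 0, 1 colour for each breed) against the distance of the region's centre from the SMAD3 start in kb, with 1 panel for each stage. The promoter near 0 stays between 38.8 and 52.8, while SMAD3_45 on the right rises from 2.36 and 2.51 at E18 to 27.3 and 40.9 at E28.

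SMAD7, the inhibitory SMAD at chr1:98512800-98543924, had a promoter (SMAD7_7) at 67.1 and 71.9 CPM at E18, 71.1 and 72.7 by E21, then 66.7 and 68.7 at E28, with a log2 fold change of -0.08 ± 0.08. Its intronic region SMAD7_4 was lowest at E21. It held 4.56 and 3.88 CPM at E18, 0.16 and 0.34 by E21, then 1.21 and 2.96 at E28, log2 fold changes of -4.28 ± 0.56 and then 3.05 ± 0.54 with adjusted p of 0.024 and 0.036. Its peaks covered 44 and 186 bases at E21 against 2600 and 2270 at E18, so these values move with the width called. The call for E21 against E18 was lost when any 1 of the E18 or E21 libraries was left out. That for E28 against E21 was lost without either E21 library. SMAD7_2 rose from 2.35 and 2.05 to 6.96 and 3.84, by 1.22 ± 0.38 with an adjusted p of 0.0498, a call lost without any 1 library other than E28 DZ. SMAD7_5, over an exon, measured 19.4 and 20.9 CPM at E18 and 33.2 and 21.4 at E28 and was not called (0.38 ± 0.23). Its covered length at E28 was 0.49 times that at E18, and per covered base it lay 0.99 above the median.

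Counted over the pathway, 19 of the 49 member regions with a peak in all 6 libraries were called between E28 and E18, 7 higher and 12 lower, against 37.1% of all 78533 regions tested (19% higher and 18.1% lower). The median log2 fold change was 0.01 over the members and -0.02 over all tested regions. By kind of region, 2 of 11 member promoters were called (all promoter regions, 40.3%) and 17 of 38 other member regions, which include promoters of other genes (all regions that are no promoter, 36.3%). The median absolute log2 fold change was 0.09 for member promoters and 1.07 for their other regions. Over all tested regions it was 0.67, and it was not computed for all promoters apart from other regions. For E21 against E18, 4 members were called, 2 higher and 2 lower, against 6.59% of all regions (4.8% higher and 1.78% lower). For E28 against E21 there were 5, 2 higher and 3 lower, against 7.13% (2.53% higher and 4.61% lower). The difference between the member shares and the background was not tested.

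The width of the peaks moved with these results. Of the 19 called members, 17 moved the same way as the length their peaks covered. With covered length in the model, 28 members were called, 24 higher and 4 lower, against 52.2% of all regions, and the median of all regions moved to 0.43. For E28 against E18, 6 members were called without E18 DZ (8740 of all 78533 regions), 8 without E18 ZZ (21.6% of all regions), 11 without E21 ZZ (27.3%), 11 without E21 DZ (27.7%), 12 without E28 ZZ (39.3%) and 20 without E28 DZ (35.5%). For E21 against E18 no member was called without E18 DZ (0.215% of all regions), and neither a member nor any other region without E21 ZZ or E21 DZ. There were 2 without E18 ZZ (2.29%), 13 without E28 ZZ (21.4%) and 12 without E28 DZ (21.7%). For E28 against E21 no region of any kind was called without either E21 library, and 3 members without E18 ZZ (5.49%) or E18 DZ (5.25%). The member counts mostly moved with the number of calls over all regions. For E28 against E18 they moved the opposite way without E28 ZZ and without E28 DZ. Whichever of the 6 libraries was left out, the E28 against E18 change stayed between 3.43 and 4.04 at SMAD3_45 and between 2.79 and 2.94 at SMAD3_39. At SMAD3_3, which fell, it stayed between -2.62 and -2.14.

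**Figure D3:**
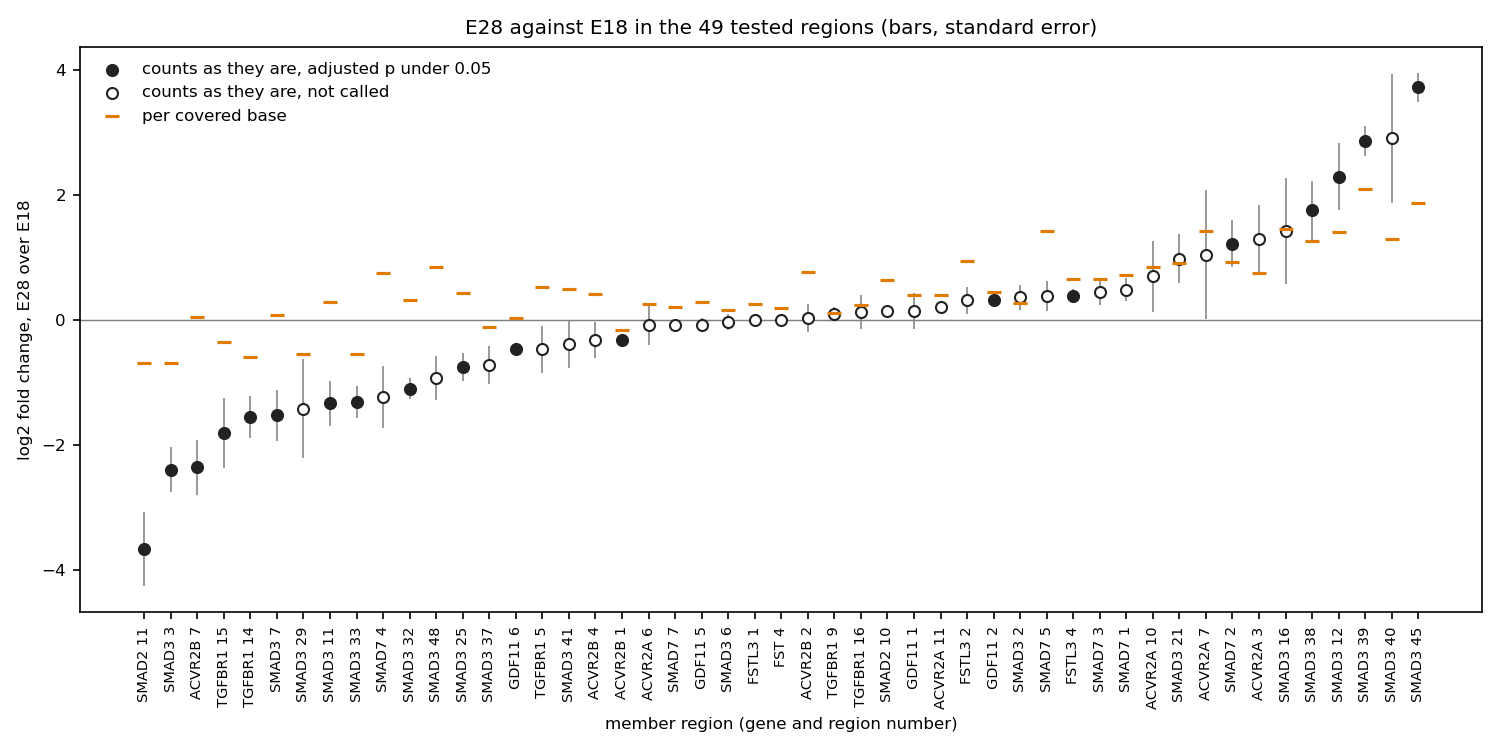
Log2 fold change of E28 over E18 (vertical axis, with standard error bars) for the 49 tested member regions in order of size, filled where the adjusted p was under 0.05, with the value per covered base as a dash, on a scale where the median of all regions is 0.43. SMAD2_11 at -3.66 and SMAD3_45 at 3.72 are the ends of the range, and most promoters sit near 0.

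Between the breeds, the question was whether the Duroc sire changed openness at these genes. No member region and none of the 78533 regions was called for DZ against ZZ by edgeR (0% of regions), and 4 members had an unadjusted p under 0.05 (3879 regions in all). DESeq2 called 159 regions and no member. The 4 members with an unadjusted p under 0.05 by edgeR were ACVR2A_6 (0.67 ± 0.27), SMAD3_33 (0.66 ± 0.21), SMAD3_39 (0.53 ± 0.18) and SMAD3_45 (0.49 ± 0.17), each higher in DZ. At the promoters the log2 differences ran from -0.12 ± 0.08 at ACVR2B_1 to 0.11 ± 0.06 at SMAD7_7, apart from TGFBR1_5 at 0.55 ± 0.31, and none was called. No member region had a peak in all 3 libraries of 1 breed and none of the other. A p that misses the threshold does not show that the breeds are alike.

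To place the pathway within muscle, cells with a count at 2 or more of 4 muscle loci (MYF5/MYF6, MYOD1, MYOG and CHRNA1) were compared with unmarked cells of the same library and like depth. This class was chosen after the shares of cells per locus were seen. At E18 the 8 muscle genes not used for marking stood at 1.03 and 1.04 times their level in matched cells, whereas the ratios were 1.32 and 1.37 at E21 and 1.48 and 1.80 at E28, so only the 4 later libraries were used. In these, marked cells numbered 541 to 1197 per library. Of the 8 muscle genes, MYLPF stood at 1.08 and 0.91 times at E21 and 1.04 and 1.19 times at E28, in ZZ and DZ. The summed dermomyotome markers stood at 1.21 to 1.45 times their level in matched cells, although MEOX2 was below 1 at E28. The summed neuron markers stood at 0.95 to 1.23 times, with DCX above and ELAVL4 and STMN2 below 1 at E28. The summed endothelial markers stood at 0.72 to 0.96 times, although TEK and PECAM1 were above 1 in some libraries. At E28 the summed fibroblast markers stood at 0.79 and 0.70 times, with COL1A2 at 1.02 and 1.03 and TCF21 at 0.99 and 1.18. The summed sclerotome markers stood at 0.83 and 0.79 times at E28, with SOX9 at 1.06 in ZZ. Heart markers summed to 0.95 to 1.04 times, with TNNT2 at 1.38 to 1.96.

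In the muscle-marked cells, 20 of 53 member regions were called, 12 higher and 8 lower, against 27.2% of 89930 regions (15.4% higher and 11.8% lower). Promoters made up 4 of them, of 12 tested, against 13.3% of all promoter regions, and other regions 16 of 41, against 30.3%. Without E28 ZZ 10 members were called (15.9% of all regions), and without E21 DZ 13 (20.5%). The largest differences were at MSTN. The MSTN promoter held 0.096, 2.53, 4.51 and 5.10 CPM in the marked cells of the E21 and then the E28 libraries (ZZ before DZ), against 0.064, 0.25, 0.91 and 0.71 in matched cells. The log2 difference was 2.70 ± 0.38 with an adjusted p of 0.00015, and 4 of 4 libraries were higher, although E21 ZZ held 3 counts in all. The region inside MSTN gave 2.83 ± 0.33 (adjusted p = 3.9e-05), again higher in 4 of 4.

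The same held for cells with any count at the MSTN promoter region MSTN_2. At E28 DZ, 49 of 1197 marked cells had 1, or 4.09% (95% Wilson interval 3.11 to 5.37), against 12 of 1894 matched cells, or 0.63% (0.36 to 1.10). At E28 ZZ the shares were 3.77% (2.62 to 5.39) and 0.80% (0.47 to 1.36), and at E21 DZ 2.59% (1.55 to 4.30) and 0.32% (0.14 to 0.75). At E21 ZZ 1 of 595 marked and 2 of 1785 matched cells had a count, and no difference was detectable at this depth. These intervals cover counting error only. Of all 9450 cells of E28 DZ, 77 had a count at MSTN_2.

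**Figure D4:**
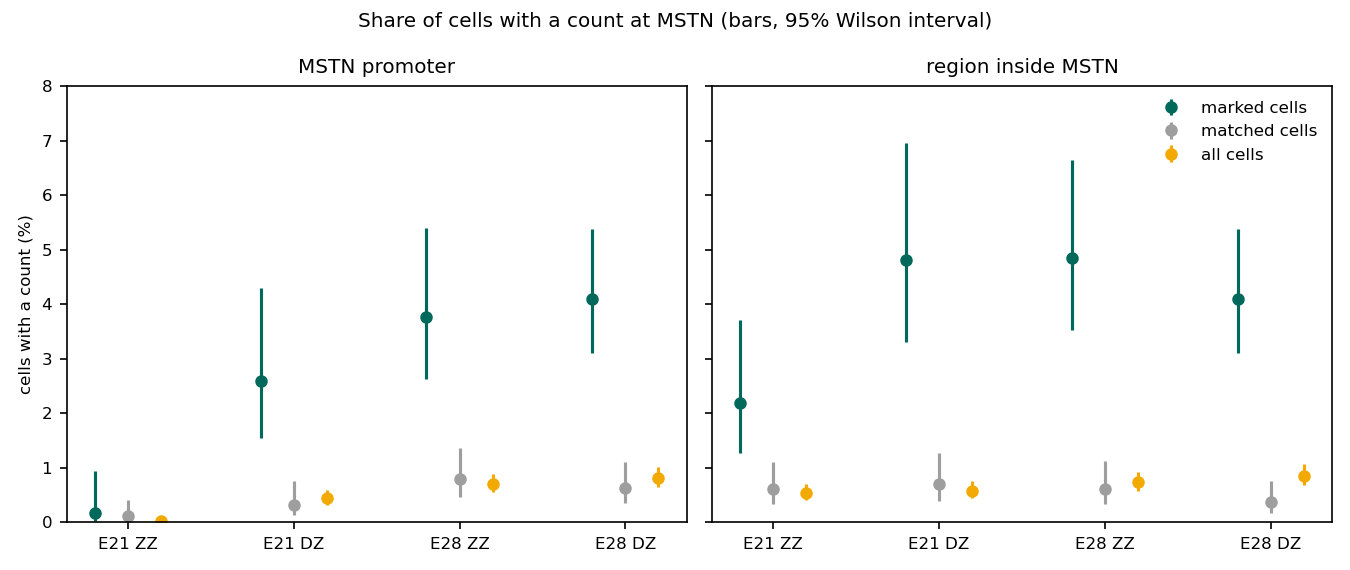
Percent of cells with a count at the MSTN promoter and at the region inside MSTN (vertical axis) in the E21 and E28 libraries, for muscle-marked, matched and all kept cells, with 95% Wilson intervals. Marked cells lie above matched cells with intervals that do not overlap, except at the promoter in E21 ZZ (0.17% and 0.11%). The promoter region drawn is MSTN_2. MSTN_3, where the intervals of marked and matched cells overlapped at E21, is not drawn.

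Of the receptors, the alternative ACVR2B promoter (ACVR2B_2, chr13:23241938-23244729) was more open in marked cells while the main one was not called. ACVR2B_2 held 12.7, 18.7, 23.2 and 20.4 CPM in marked cells and 6.78, 5.21, 5.85 and 5.86 in matched cells, a log2 difference of 1.69 ± 0.19 (adjusted p = 3.2e-05, higher in 4 of 4). ACVR2B_1 gave 0.16 ± 0.08 with an adjusted p of 0.16. Between E28 and E18 ACVR2B_2 had shown 0.03 ± 0.23, and per covered base it lay 0.34 above the median. In ACVR2A, intronic region ACVR2A_6 held 9.89, 11.3, 6.13 and 14.03 CPM in marked cells against 2.22, 3.28, 2.53 and 4.40, a difference of 1.77 ± 0.21 (adjusted p = 3.6e-05), and its neighbour ACVR2A_7 gave 1.36 ± 0.37. The ACVR2A promoter gave 0.03 ± 0.07 and the main TGFBR1 promoter 0.01 ± 0.06, neither called.

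The FST promoter was modestly more open in marked cells, with 49.5, 44.2, 61.0 and 58.4 CPM against 45.4, 39.4, 44.5 and 43.1. The log2 difference was 0.35 ± 0.08 with an adjusted p of 0.0061, and this call was lost without E28 ZZ (adjusted p = 0.065). The promoters of GDF11, FSTL3, SMAD2 and SMAD7 were not called, with differences of -0.18 ± 0.07, -0.07 ± 0.05, 0.08 ± 0.07 and 0.16 ± 0.07. The SMAD3 promoter gave 0.25 ± 0.08 (adjusted p = 0.032), which was lost without E21 DZ, E28 ZZ or E28 DZ.

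SMAD3 regions went both ways. SMAD3_39, which had risen with stage, was also more open in marked cells, with 15.5, 27.3, 25.3 and 29.9 CPM against 5.07, 7.78, 7.18 and 7.79, a difference of 1.84 ± 0.13 (adjusted p = 1.3e-06). SMAD3_38 gave 1.58 ± 0.34 and SMAD3_2, over an exon of LOC110261941 upstream of SMAD3, 0.72 ± 0.16. SMAD3_12 had risen with stage as well, yet it was lower in marked cells, with 0.58, 0.71, 0.81 and 0.90 CPM against 1.38, 2.78, 3.65 and 2.61, a difference of -1.69 ± 0.32 (adjusted p = 0.0018). SMAD3_7, SMAD3_11, SMAD3_14, SMAD3_16, SMAD3_37 and SMAD3_43 were lower too, at -0.91 to -1.33. SMAD3_45, which had the largest change of E28 against E18, was not called between the 2 kinds of cell (-0.07 ± 0.21). Marked cells were above matched cells at E21 (9.99 and 18.3 against 7.03 and 11.8) and below them at E28 (21.2 and 23.8 against 27.3 and 49.2). SMAD7_5 was lower in marked cells, at -0.53 ± 0.15 with an adjusted p of 0.016, a call lost without E28 ZZ (adjusted p = 0.10). Of the 12 regions higher in marked cells, ACVR2B_7 and SMAD2_11 gave 0.80 ± 0.26 and 1.12 ± 0.39, calls lost without any 1 of the 4 libraries for ACVR2B_7 and without any but E28 DZ for SMAD2_11.

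**Figure D5:**
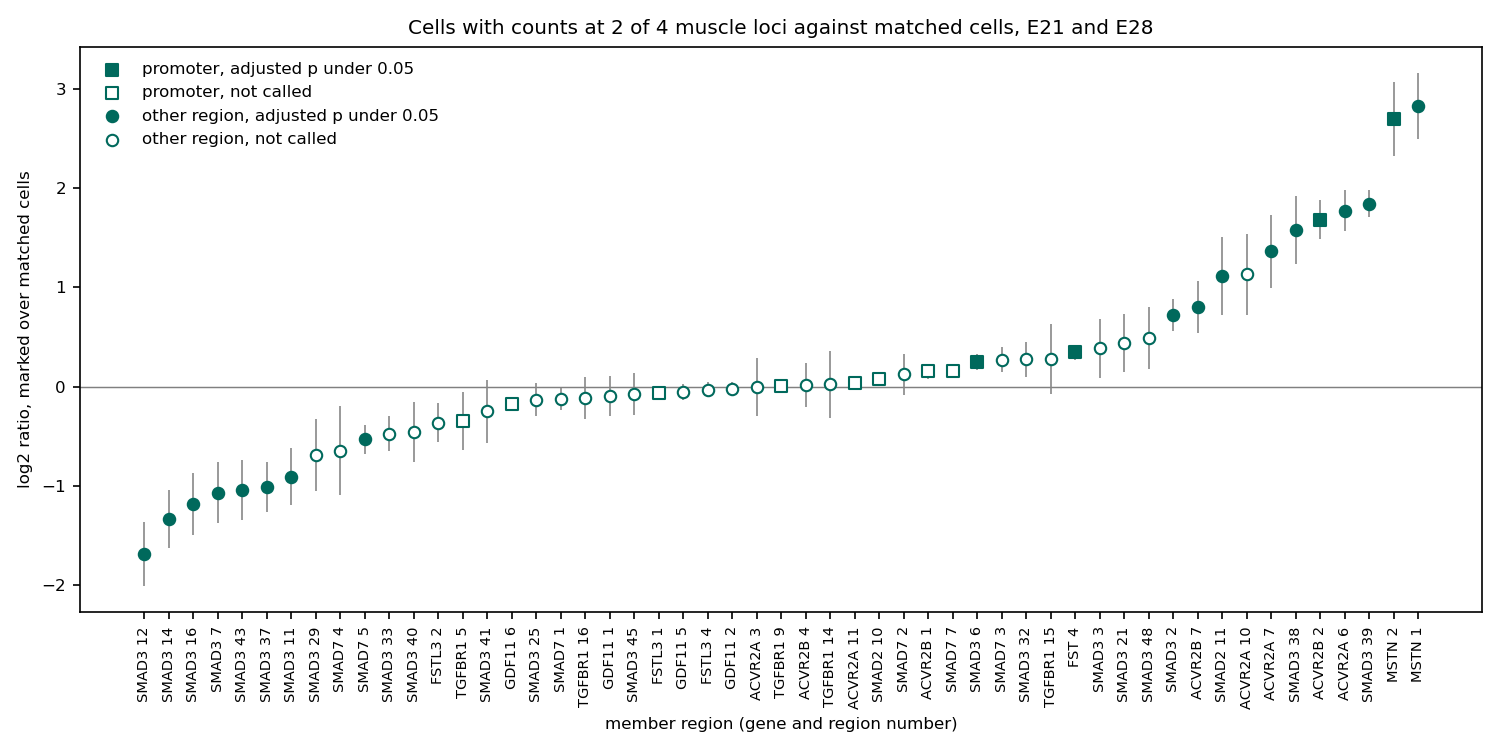
Log2 ratio of muscle-marked over matched cells (vertical axis, with standard error bars) for the 53 member regions tested in the E21 and E28 libraries, in order of size, with squares for promoters and filled symbols where the adjusted p was under 0.05. The MSTN regions at 2.83 and 2.70 and SMAD3_39 at 1.84 lie at the right, SMAD3_12 at -1.69 at the left.

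A broader marking, at 2 or more of 11 muscle loci, took in 33628 of the 58809 cells, 48.9% to 63.3% of each library, and those cells were deeper than the others. It called 4 member regions, 3 higher and 1 lower, against 6.84% of all regions, and none (637 regions in all) once the other cells were matched in depth. Matching left 178 to 296 other cells per library, against 4605 to 7116 marked cells. The part of this smaller number of cells in the loss of calls was not tested. Among these broadly marked cells, E28 against E18 called 18 members, 7 higher and 11 lower, against 37.8% of all regions, with SMAD3_45 at 3.63.

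The wider pathway was followed through the promoter regions of 31 further genes, of which 29 had one and 31 regions were tested. For E28 against E18, 14 rose and 4 fell, where 23.2% of all promoter regions rose and 17.2% fell, and the median was 0.32 against 0.07 over all promoter regions. Some adjusted p lay near the threshold, such as 0.044 at INHA and 0.038 at SMURF2. How these calls hold without each library or per covered base is not given here. The antagonists went both ways. WFIKKN1 and WFIKKN2, related secreted inhibitors of myostatin and GDF11, gave -2.18 (adjusted p = 0.0023) and 0.90 (adjusted p = 0.0089). The proteoglycan DCN gave 1.62 (adjusted p = 0.0081). All 5 called regions among the transducers and feedback genes rose (SMAD4, SMURF1, SMURF2, SKI and TGIF1), by 0.35 to 0.50. Promoter regions of the ligands TGFB2 and TGFB3 rose by 0.71 and 0.91. FURIN, a protease that cleaves ligand precursors, gave -0.70 (adjusted p = 0.015), while LTBP3, which holds latent TGF-β in the matrix, gave 0.85 (adjusted p = 0.0071). The type I receptors ACVR1C and ACVR1B gave -0.89 (adjusted p = 0.025) and 0.44 (adjusted p = 0.034). None was called between the breeds. In muscle-marked cells the promoters of INHA (0.70) and WFIKKN2 (0.34) were higher and 1 INHBA region was lower (-0.41), where 8.14% of all promoter regions were higher and 5.12% lower.

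Of the 111 member regions other than the members' own promoters, 26 (23.4%) had a peak in both E18 libraries and in no E28 library, against 28% of all regions that are no promoter of any gene. Further, 4 member regions of any kind (MSTN_1, MSTN_2, SMAD3_14 and SMAD3_43) had one in all 4 later libraries and in no E18 library, 3.23% of the members against 2.99% of all regions. Peaks were fewer at E28 over the whole genome, with 131975 and 137769 against 217138 and 199846 at E18, and the part of depth in these losses was not tested. Promoter regions held 55.6% to 61.6% of all member counts in each library.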

How the data were processed

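Single-cell ATAC-seq was carried out by the authors on 6 libraries, and the deposited files held counts of Tn5 cut sites per peak and barcode, made with Cell Ranger ATAC 1.2.0 per the file headers on Sscrofa11.1 per the labels, and not normalized. Seurat 3.1.1 and Signac 0.2.2 are named in the submitters' processing notes. Peaks had been called in each library alone, so a value depends on where and how widely a peak was called.

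Barcodes with 2000 to 30000 counts were kept as cells. The study states this range for fragments, so 4000 to 60000 counts was an alternative. Its other quality filters were not used here, and doublets were not treated. Peaks of all libraries were merged, and counts were summed per region and library. A region was tested where all libraries compared had a peak, which left 78533 regions for stage and breed and 89930 for muscle-marked cells at E21 and E28. Stage and breed were fitted with edgeR 4.0.16 (R 4.3.3; TMM, quasi-likelihood test, 2 residual degrees of freedom), with Benjamini-Hochberg adjustment over all regions tested and a threshold of 0.05. DESeq2 1.42.0, other scalings and filters, the covered length as an offset and leaving out each library were alternatives. Changes are log2 fold changes with SE from these TMM-scaled fits, and can differ from the ratio of the CPM printed, which are counts scaled to the library's total. Depth was 89816504 to 133037579 counts per library. The fit of E28 against E18 was also run on simulated data, and the outcome is not given here.

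Muscle-marked cells were compared with unmarked cells of like depth, summed per library, with library as a term and regions within 1 Mb of the marking loci left out. The planned class (2 of 11 loci) held 48.9% to 63.3% of the cells of each library, and the class of 2 of 4 loci was added after the data were seen. For each gene, the text names the promoter region with most counts and the other regions with the smallest p for E28 against E18 and for the planned muscle class (23 regions), and further regions were picked with their values in view. The members and lists were chosen with earlier results of these data known. Intervals on shares of cells are 95% Wilson intervals. Python 3.11.15 was used for the sums, and sequences came from the RefSeq genome. The sequence of 1 further region is not reported here.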

Additional observations from a re-analysis of the deposited data

Results flagged for a closer look

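At 4 of the regions named by the rule the change from E18 to E28, as the difference in log2 (CPM + 0.5), had opposite signs in the breeds. Each breed has 1 library a stage, and these differences were not tested. DZ minus ZZ was -0.14 at the FST promoter FST_4 (0.12 in ZZ and -0.02 in DZ), 0.70 at ACVR2A_6 (-0.39 and 0.31), -0.45 at the TGFBR1 promoter TGFBR1_9 (0.36 and -0.09) and -0.34 at the SMAD3 promoter SMAD3_6 (0.18 and -0.17). The directions of the breeds also differed at 5 other tested member regions (GDF11_1, ACVR2B_2, ACVR2B_4, TGFBR1_16 and SMAD3_41).

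At 5 regions the log2 difference between muscle-marked and matched cells had 1 sign in both E21 libraries and the other in both E28 libraries, and this was not tested either. For SMAD3_45 it was 0.48 and 0.62 at E21 and -0.36 and -1.03 at E28 (ZZ and DZ), and the E28 mean minus the E21 mean was -1.25. The E28 minus E21 difference was 1.03 for SMAD3_41, -0.92 for SMAD3_48, -0.44 for SMAD7_1 and 0.23 for the SMAD7 promoter SMAD7_7.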

How the results depend on the processing

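The 19 member calls for E28 against E18 fell to 5 of 20 tested (28.6% of all regions) where covered lengths lay within 1.5 times, and ranged from 6 to 20 when each library was left out. Per covered base 28 were called (24 higher and 4 lower), on a scale that moved the median of all regions from -0.02 to 0.43. Among others, GDF11_6 (0.0397), FSTL3_1 (0.25) and ACVR2B_7 (0.0516) reversed in sign and lay below that median. So did the called falls at SMAD3_7 (0.08), SMAD3_11 (0.29), SMAD3_25 (0.425) and SMAD3_32 (0.32). Uncalled falls at TGFBR1_5 (0.53), SMAD3_41 (0.50), SMAD3_48 (0.85) and SMAD7_4 (0.745) reversed to values above it. For E21 against E18 the 4 calls became 10 with DESeq2, 9 per covered base, 0 with regions that had a peak in any library (16 at an unadjusted p under 0.05 by edgeR; no region of 220421 was called), 0 within 1.5 times (2 unadjusted; 2.53% of all regions) and 0 to 13 without each library. For E28 against E21 the 5 became 8, 21 (19 higher and 2 lower), 0 (23 unadjusted; again no region called), 0 (2 unadjusted; 2.91%) and 0 to 7, and 3 with stage alone. DZ against ZZ gave 0 without each library. Among broadly marked cells the 18 stage calls became 28 with DESeq2 (53% of all regions), 4 within 1.5 times (29.3%) and 6 to 20 without each library. The 4 calls of that class became 7 with a peak in any library (4.21%), 2 at 3 or more loci (6.63%), 0 with matched depth (4 unadjusted; 0.824%) and 0 to 5 without each library. The 20 calls in muscle-marked cells became 9 with all 6 libraries (13.2%) and 10 to 19 without each. Over all 78533 regions DESeq2 called 14219 for E21 against E18 (edgeR 5173) and 15465 for E28 against E21 (edgeR 5603), and the fit per covered base 13854 and 25477. Of the alternative values, 451 were classed as the same, 66 as weaker, 7 as stronger and 3 as reversed. A further 55, all shares of cells with a count, moved by more than their interval. Single regions named by the rule, and some picked ones, were classed by direction and side of the threshold. A change of sign counted as reversed only where either fit called the region, and otherwise as the same. The reversed falls at SMAD3_7, SMAD3_11, SMAD3_25 and SMAD3_32 were not among the regions classed. Totals of called regions were classed by number alone, as the same within 1.5 times the main total, and their directions were not compared. The causes were not tested. The labels give no replicate numbers to pair, and the reported fits had stage with breed, or the library, as terms.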
